A study of Mus musculus with 12 samples.

Results

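The immediate early and AP-1 genes Fos, Fosb, Jun, Junb, Jund, Atf3, Egr1, Ier3, Klf6 and Myc were followed in the livers of young mice whose hepatocytes lack Cdk1, the kinase that drives entry into mitosis. The members were the rows of the deposited expression table that carry one of these 10 gene symbols, out of 47069 genes listed, and each symbol was found once. Immediate early genes are transcribed within minutes of a growth factor, cytokine or stress signal, from transcription factors already present in the cell and without new protein synthesis. AP-1 is a dimer of basic leucine zipper proteins, in which a Jun protein pairs with itself, with a Fos protein or with an ATF protein, and binds short DNA elements in the control regions of its targets. In the liver these genes are known for their fast induction after partial hepatectomy, in injury and during the isolation of hepatocytes with collagenase.

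The study deposited 12 RNA-seq libraries of polyadenylated RNA from mice at postnatal day 14. They form 4 groups of 3 libraries, which are hepatocytes isolated from WT mice, hepatocytes isolated from Cdk1 Liv-/- mice, whole liver of WT mice and whole liver of Cdk1 Liv-/- mice. Cdk1 Liv-/- mice came from a cross of Cdk1 flox/flox mice with mice that carry Albumin-Cre. Albumin-Cre acts in hepatocytes, and the study found partial deletion already in embryonic hepatoblasts. Cells outside that lineage are meant to keep Cdk1, so whole liver mixes cells with and without the gene. The labels give the WT animals as wild type, with no further allele. Levels are given in FPKM, fragments relative to transcript length and to all mapped fragments of the library, a scale on which genes can be compared. Group levels are the mean ± SD of 3 libraries. One FPKM stood for an estimated 35.1 to 49.3 reads per kilobase of transcript in the 12 libraries.

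Differences were tested with limma on log2(FPKM + 0.5) over the 17386 genes with a mean of at least 0.1 FPKM, which include all 10 members. Called genes had an adjusted p no higher than 0.1 together with a log2 fold change of 1 or more in either direction. The study's methods give at least 3 biological replicates for its experiments in general. The labels do not tie each library to a separate animal, so a p measures the spread between libraries.

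Some libraries stood apart before any comparison of the members. Cdk1 Liv-/- whole liver replicate 3 had 158 FPKM of Xist, the RNA that silences an X chromosome in females, and 0 FPKM summed over Kdm5d, Uty, Eif2s3y and Ddx3y, which are Y-linked. The other 11 libraries had no more than 0.14 FPKM of Xist, and their Y-linked sum lay between 48.4 and 62.1 FPKM. The study's methods state that male mice were used, which that library does not match. It lay below its group mean for 10 of the 10 members, and Cdk1 Liv-/- whole liver replicate 2 lay above it for 10 of 10. WT hepatocytes replicate 2 lay below its group mean for all 10 members. WT hepatocytes replicate 1 was the highest of its group for Fos, Fosb, Jun, Junb, Jund and Egr1. WT hepatocytes replicate 3 had the most RNA of other liver cells among isolated WT hepatocytes, with 566 FPKM summed over 8 Kupffer cell markers, where replicates 1 and 2 had 309 and 167 FPKM. Member and marker results that changed most without one of these libraries are given with and without it.

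The deletion was visible in the level of Cdk1 itself. Cdk1 stood at 25.5 ± 4.41 FPKM in WT hepatocytes and 9.45 ± 2.47 FPKM in Cdk1 Liv-/- hepatocytes. In whole liver the WT level was 23.2 ± 1.95 FPKM and that of Cdk1 Liv-/- was 12.6 ± 1.35 FPKM. The allele removes part of the gene, so a value for the whole gene is a partial check. Markers of hepatocytes, Alb the most abundant, summed to between 81611 and 90385 FPKM in the WT libraries of both compartments. Their sum lay between 55388 and 66127 FPKM in the Cdk1 Liv-/- libraries. Alb made up most of each sum, so the sum does not describe the other markers of the list.

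**Figure D1:**
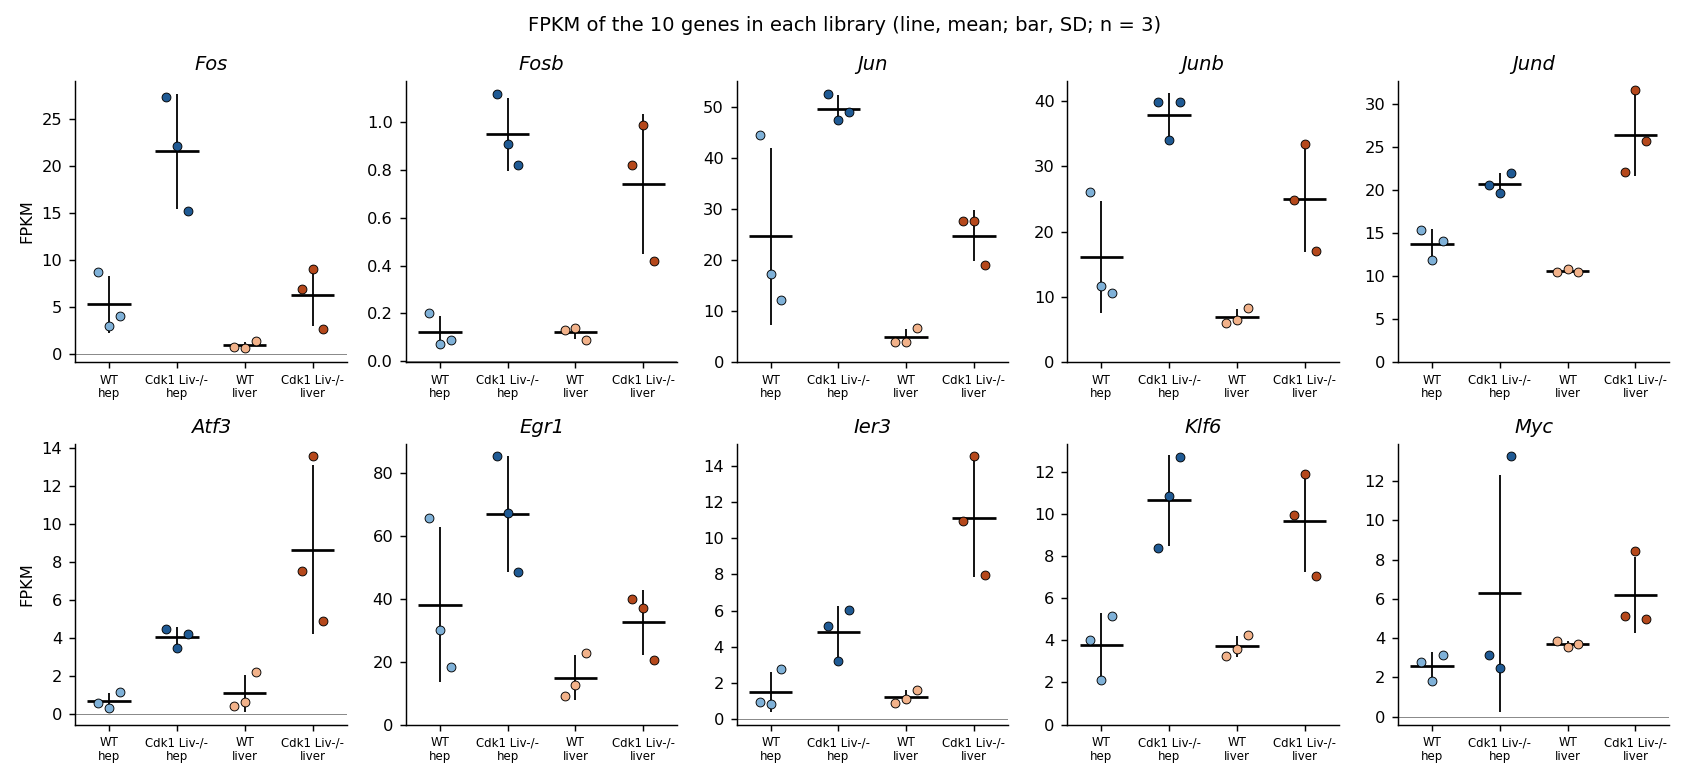
FPKM of the 10 members in each of the 12 libraries, each member on its own axis, with points for libraries, a horizontal line for the group mean and a vertical bar for the SD. Fosb was the lowest member in all 4 groups (means of 0.12 to 0.95 FPKM) and Egr1 had the highest mean in all 4 (14.8 to 66.9 FPKM).

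The members lie on different chromosomes except for Junb and Jund, which are both on chromosome 8. All positions are from GENCODE M21 on GRCm38, the assembly that is also called mm10. Fos is ENSMUSG00000021250 on chromosome 12, and Fosb is ENSMUSG00000003545 on chromosome 7. Jun is ENSMUSG00000052684 on chromosome 4, Junb is ENSMUSG00000052837 and Jund is ENSMUSG00000071076. Atf3 is ENSMUSG00000026628 on chromosome 1, Egr1 is ENSMUSG00000038418 and Ier3 is ENSMUSG00000003541 on chromosome 17. Klf6 is ENSMUSG00000000078 on chromosome 13 and Myc is ENSMUSG00000022346 on chromosome 15. No member shared its values in the 12 libraries with another gene of the table.

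As the plot of FPKM by library shows, most members moved together between the genotypes, so the promoters of 5 of them are shown with the motifs found there. These 5 are the ones with a match within the 150 bases before the start. Atf3 and Jund had no match, those of Ier3 lie further upstream, and Fos and Fosb share no matched motif with the other members. The sequences are RefSeq promoter entries on GRCm38.p6, and 8 of the 10 members were matched there, with Egr1 and Myc the others. Each is printed 5′ to 3′ on the strand of its gene, upstream of the RefSeq start, with matches of the searched motifs in capitals (ATTGG is CCAAT on the other strand). The stretches are chr12:85473740-85473889 on the plus strand for Fos, chr7:19310052-19310195 on the minus strand for Fosb and chr4:95052223-95052372 on the minus strand for Jun. Those of Junb and Klf6 are chr8:84978749-84978898 on the minus strand and chr13:5861339-5861481 on the plus strand. Counted from the RefSeq start, the stretch of Fosb ends at base -7, that of Klf6 at base -8 and the others at base -1. The windows of Jund and Atf3 lie away from the GENCODE starts. That of Jund ends at 70697738, before the GENCODE start at 70698949. That of Atf3, 191183334 to 191183583, lies inside the GENCODE gene, which starts at 191218039 on the minus strand.
Fos: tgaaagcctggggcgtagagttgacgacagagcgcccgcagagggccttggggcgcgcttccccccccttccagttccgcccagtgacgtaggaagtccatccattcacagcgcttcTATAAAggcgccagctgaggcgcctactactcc
Fosb: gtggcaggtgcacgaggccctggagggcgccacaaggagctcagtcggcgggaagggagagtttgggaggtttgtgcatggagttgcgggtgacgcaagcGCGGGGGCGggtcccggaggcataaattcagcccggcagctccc
Jun: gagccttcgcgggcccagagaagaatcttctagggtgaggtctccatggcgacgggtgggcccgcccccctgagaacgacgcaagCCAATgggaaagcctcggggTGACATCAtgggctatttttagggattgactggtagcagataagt
Junb: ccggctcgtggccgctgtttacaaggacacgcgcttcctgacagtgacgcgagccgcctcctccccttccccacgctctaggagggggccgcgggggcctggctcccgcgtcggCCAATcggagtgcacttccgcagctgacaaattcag
Klf6: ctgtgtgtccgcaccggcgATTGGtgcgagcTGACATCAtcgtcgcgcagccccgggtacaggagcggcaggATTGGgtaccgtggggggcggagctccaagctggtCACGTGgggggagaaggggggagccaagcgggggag

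The motifs were searched on both strands in the 250 bases before each start, over 32851 such windows, and no match in a member overlapped another. The AP-1 element TGACTCA had no match in the 8 members and was in 4.46% of all windows. The cAMP response element TGACGTCA also had none, against 1.55% of all windows, and the CArG box, the element of serum response factor, had none against 1.47%. TGACATCA, the variant known from the Jun promoter, was found in Jun, at bases -45 to -38 from the start, and in Klf6, at -119 to -112, and in 2.93% of all windows. TATAAA was found in Fos, at -33 to -28, and in 12.4% of all windows. CCAAT was found in Jun, Junb, Klf6 and Ier3, and in 33.85% of all windows. The Egr1 element GCGGGGGCG was found in Fosb, at -50 to -42, and in 2.57% of all windows. The E-box CACGTG, which Myc dimers bind, was found in Klf6, at -43 to -38, and in 6.02% of all windows. A match describes letters in a window and says nothing about binding. Bases outside the window and elements with other letters were not searched, so a missing match does not mean that a gene lacks the element.

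The first comparison asked how the members differ between Cdk1 Liv-/- and WT hepatocytes. Most of the set was higher in Cdk1 Liv-/- hepatocytes. Fos, Fosb, Junb, Atf3, Ier3 and Klf6 were called higher, and Jund passed the test with a smaller fold. Jun, Egr1 and Myc did not pass, and 1 library of a group set much of the spread of each. No member was lower on average.

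By limma, 6 of the 10 members were called higher and 0 lower, where 4.2% of all genes tested were called higher. At an unadjusted p under 0.05, 8 members were higher and 0 lower, against 17.4% and 11% of all genes, and the two-sample test with q-values also called 0 lower. At an adjusted p of at most 0.1 with no fold required, 7 members passed, against 12.1% of all genes. The libraries of the genotypes did not overlap for 8 members, all but Egr1 and Myc, against 20.6% of all genes that were higher without overlap. The median log2 fold change was 1.28 over the members and 0.05 over all genes tested. All 10 members had a log2 fold change above 0 under each of the 16 alternatives tried for this comparison. In bulk RNA, fewer cells of a type and less RNA per cell cannot be told apart.

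Fos encodes the founding Fos protein of AP-1, which cannot pair with itself and needs a Jun partner. It stood at 8.74, 2.98 and 4.06 FPKM in WT hepatocytes and at 27.4, 22.1 and 15.2 FPKM in Cdk1 Liv-/- hepatocytes. All 3 Cdk1 Liv-/- libraries were above all 3 WT libraries. Fos rose by 2.03 ± 0.40 on the log2 scale (SE, adjusted p 0.0283 by limma) and was called under all 16 alternatives, with adjusted p between 0.00826 and 0.0877. Fosb, a Fos protein with the same partners, was near the lower end of what the depth can measure. It stood at 0.20, 0.07 and 0.09 FPKM in WT hepatocytes and at 1.12, 0.91 and 0.82 FPKM in Cdk1 Liv-/- hepatocytes, an estimated 10.1 to 36.6 reads and 107 to 169 reads. The groups did not overlap. Fosb rose by 1.23 ± 0.14 (adjusted p 0.00561), and its log2 fold change ranged from 0.80 with an added constant of 1, where it was no longer called, to 2.29 with a constant of 0.1.

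The RNA of the Jun genes, whose proteins pair with Fos proteins or among themselves, was higher on average in Cdk1 Liv-/- hepatocytes, to unequal degrees. Jun stood at 44.5, 17.2 and 12.1 FPKM in WT hepatocytes and at 52.5, 47.4 and 48.9 FPKM in Cdk1 Liv-/- hepatocytes. WT hepatocytes replicate 1 lay close to the Cdk1 Liv-/- libraries and far above the other WT libraries. The log2 fold change of Jun was 1.22 ± 0.44 (adjusted p 0.137), which did not pass. Without WT hepatocytes replicate 1 it was 1.75 (adjusted p 0.0170) and Jun was called, as it was in 1 fit of all 12 libraries, in a range of adjusted p from 0.0170 to 0.282 over the alternatives. Junb stood at 26.1, 11.7 and 10.6 FPKM in WT and at 39.9, 34.0 and 39.9 FPKM in Cdk1 Liv-/- hepatocytes. WT replicate 1 was again the highest of its group. Junb rose by 1.32 ± 0.33 (adjusted p 0.0561). That call was lost without any 1 of the other 5 hepatocyte libraries, where the log2 fold change was 1.16 without WT replicate 2, 1.09 without WT replicate 3, and 1.29, 1.40 and 1.29 without Cdk1 Liv-/- replicates 1, 2 and 3. Adjusted p ranged from 0.0104 to 0.150. Jund, the Jun protein that most cells express at rest, stood at 15.3, 11.9 and 14.1 FPKM in WT and at 20.6, 19.7 and 22.1 FPKM in Cdk1 Liv-/- hepatocytes. It had the narrowest spread of the Jun genes, and it rose by 0.58 ± 0.11 (adjusted p 0.0280), short of the fold required for a call.

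Atf3, a stress-induced leucine zipper protein that pairs with Jun proteins, was called under all 16 alternatives, as was Fos. It stood at 0.61, 0.33 and 1.15 FPKM in WT hepatocytes and at 4.45, 3.48 and 4.21 FPKM in Cdk1 Liv-/- hepatocytes. The lowest Cdk1 Liv-/- library lay far above the highest WT library. Atf3 rose by 1.98 ± 0.27 (adjusted p 0.00970), within a range from 0.00778 to 0.0488.

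Ier3, which encodes a short-lived protein that acts on cell survival, stood at 0.95, 0.83 and 2.80 FPKM in WT hepatocytes and at 5.18, 3.22 and 6.05 FPKM in Cdk1 Liv-/- hepatocytes. WT replicate 3 came close to the lowest Cdk1 Liv-/- library. Ier3 rose by 1.48 ± 0.41 (adjusted p 0.0706), within a range of adjusted p from 0.0132 to 0.190. It was no longer called when WT replicate 1 (1.30) or 2 (1.24) was left out, or Cdk1 Liv-/- replicate 1 (1.41) or 3 (1.31). Klf6, a zinc finger factor of the Krüppel-like family that is induced in liver injury, stood at 4.03, 2.11 and 5.17 FPKM in WT and at 8.41, 10.9 and 12.7 FPKM in Cdk1 Liv-/- hepatocytes. The groups did not overlap, and Klf6 rose by 1.44 ± 0.31 (adjusted p 0.0379), within a range from 0.00404 to 0.114. It missed the threshold without WT replicate 1 (1.52), Cdk1 Liv-/- replicate 2 (1.42) or Cdk1 Liv-/- replicate 3 (1.31). Without Cdk1 Liv-/- replicate 3 only 3 members were called, which were Fos, Fosb and Atf3. With no filter on low values the same 3 were called, as Junb (adjusted p 0.143), Ier3 (0.163) and Klf6 (0.102) missed the threshold.

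Egr1 and Myc overlapped between the genotypes. Egr1, a zinc finger factor downstream of ERK signalling, stood at 65.7, 29.9 and 18.4 FPKM in WT hepatocytes and at 85.2, 67.1 and 48.4 FPKM in Cdk1 Liv-/- hepatocytes. Its log2 fold change of 0.96 ± 0.46 had an adjusted p of 0.230. Without WT hepatocytes replicate 1 it was 1.45 (adjusted p 0.0765) and Egr1 was called, within a range from 0.0765 to 0.455. Without WT hepatocytes replicate 3 it was 0.55. Myc, which drives growth and ribosome production, stood at 2.77, 1.82 and 3.16 FPKM in WT and at 3.14, 2.47 and 13.3 FPKM in Cdk1 Liv-/- hepatocytes. Replicate 3 of the Cdk1 Liv-/- hepatocytes stood far above the others. The log2 fold change of Myc was 0.81 ± 0.59 (adjusted p 0.414), and it was 0.12 without that library.

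The second comparison took the genotypes in whole liver, where hepatocytes are measured with the other cells of the organ and were not put through isolation. The set was higher in Cdk1 Liv-/- whole liver throughout, with the largest changes in Ier3, Atf3, Jun and Fos. All but Fosb and Myc were called higher, and Fosb passed the test with a fold short of a call. Myc did so too, and that pass was lost when any 1 of the 3 WT whole liver libraries was left out. Egr1 was the member whose libraries overlapped between the genotypes.

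By limma, 8 members were called higher, against 4.59% of all genes. No member had a value below 0, and 10 passed at an adjusted p of at most 0.1 with no fold required, against 38% of all genes. The libraries did not overlap for 9 members, against 43.2% of all genes. The distribution of all genes lay above 0, with a median log2 fold change of 0.18. Scaling by median-ratio size factors shifted that median by -0.17. The median over the members was 1.51, which is 1.33 above that of all genes, and all 10 were above 0 under each of the 16 alternatives.

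Ier3 had the largest change of the set. It stood at 0.89, 1.11 and 1.64 FPKM in WT whole liver and at 10.9, 14.5 and 7.95 FPKM in Cdk1 Liv-/- whole liver. The lowest Cdk1 Liv-/- library was well above the highest WT library. Ier3 rose by 2.75 ± 0.25 (adjusted p 0.00196). Atf3 stood at 0.42, 0.65 and 2.19 FPKM in WT and at 7.52, 13.5 and 4.87 FPKM in Cdk1 Liv-/- whole liver. It had a wide spread in both groups, with no overlap, and rose by 2.58 ± 0.51 (adjusted p 0.0155).

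Jun stood at 3.90, 3.80 and 6.70 FPKM in WT whole liver and at 27.6, 27.6 and 19.0 FPKM in Cdk1 Liv-/- whole liver. Here no WT library came near the Cdk1 Liv-/- ones, and Jun rose by 2.27 ± 0.25 (adjusted p 0.00312). Junb stood at 6.0, 6.45 and 8.20 FPKM in WT and at 24.9, 33.4 and 17.0 FPKM in Cdk1 Liv-/- whole liver, and it rose by 1.75 ± 0.25 (adjusted p 0.00647). Jund stood at 10.5, 10.8 and 10.4 FPKM in WT and at 22.1, 31.7 and 25.7 FPKM in Cdk1 Liv-/- whole liver. Relative to its mean, Jund had the smallest spread of any member in any group in WT whole liver, and it rose by 1.27 ± 0.13 (adjusted p 0.00252).

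Fos stood at 0.73, 0.58 and 1.32 FPKM in WT whole liver and at 6.90, 9.03 and 2.68 FPKM in Cdk1 Liv-/- whole liver. Its lowest Cdk1 Liv-/- value was that of replicate 3, the library with Xist. Fos rose by 2.18 ± 0.44 (adjusted p 0.0161), and by 2.65 without replicate 3 (adjusted p 0.00895), within a range from 0.00589 to 0.0616. Fosb stood at 0.13, 0.14 and 0.09 FPKM in WT and at 0.82, 0.99 and 0.42 FPKM in Cdk1 Liv-/- whole liver. Its log2 fold change of 0.98 ± 0.19 (adjusted p 0.0134) fell just short of the fold required, and without replicate 3 of the Cdk1 Liv-/- whole liver it was 1.18 and Fosb was called. The value depended on the added constant, with 0.62 at a constant of 1 and 1.88 at a constant of 0.1, where Fosb was called.

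Klf6 ranged from 3.27 to 4.26 FPKM in WT whole liver and from 7.08 to 11.9 FPKM in Cdk1 Liv-/- whole liver, and it rose by 1.25 ± 0.20 (adjusted p 0.00801). Egr1 stood at 9.11, 12.6 and 22.8 FPKM in WT and at 39.7, 37.1 and 20.6 FPKM in Cdk1 Liv-/- whole liver. Cdk1 Liv-/- replicate 3 lay below WT replicate 3. Egr1 was called at 1.15 ± 0.40 (adjusted p 0.0708), and the call was lost when WT replicate 1 (0.86) or 2 (1.08) was left out, or Cdk1 Liv-/- replicate 1 (0.97) or 2 (1.02). It was also lost with no filter (adjusted p 0.152), with median-ratio size factors (0.93, adjusted p 0.150) and with a replicate block (adjusted p 0.163), so that Egr1 was called under 9 of 16 alternatives. Adjusted p of Egr1 ranged from 0.0418 to 0.185. Myc ranged from 3.54 to 3.87 FPKM in WT and from 4.98 to 8.42 FPKM in Cdk1 Liv-/- whole liver, and it rose by 0.63 ± 0.20 (adjusted p 0.0538). Myc no longer passed without WT replicate 1 (adjusted p 0.123), 2 (0.135) or 3 (0.125), with no filter (0.115), with median-ratio size factors (0.152) or in 1 fit of all 12 libraries (0.345). Without Cdk1 Liv-/- replicate 2 its log2 fold change was 0.41, and adjusted p ranged from 0.0193 to 0.345. Without Cdk1 Liv-/- replicate 3, Fosb joined the called members and none was lost, so that 9 were called. Fos, Jun, Junb, Jund, Atf3, Ier3 and Klf6 were called under all 16 alternatives.

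**Figure D2:**
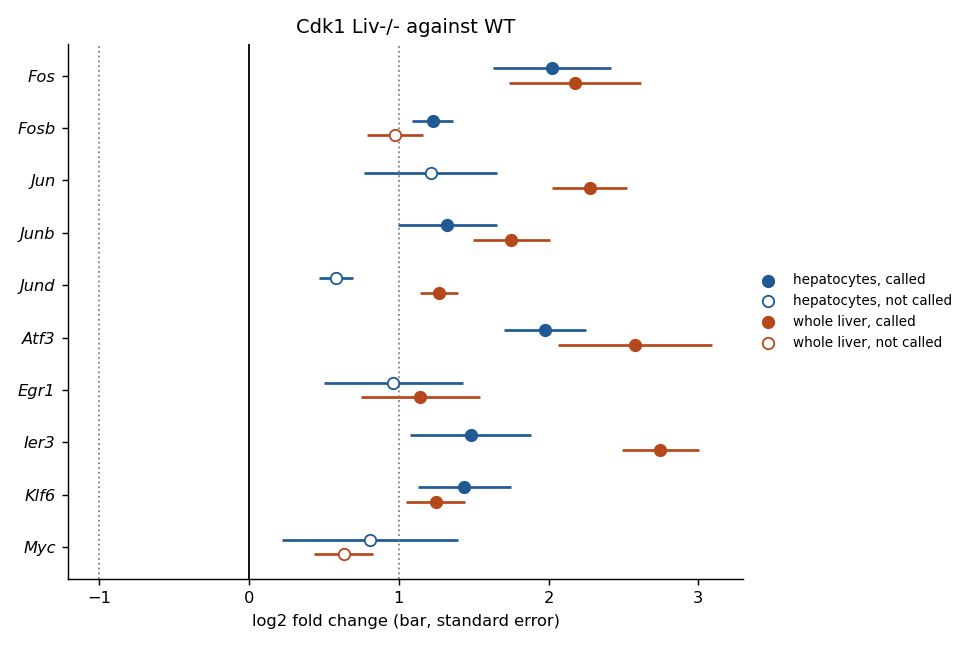
Log2 fold change of each member between Cdk1 Liv-/- and WT in hepatocytes and in whole liver, with SE bars, filled points for called members and dotted lines at the fold required for a call. All 10 members were above 0 in both compartments, from 0.58 (Jund) to 2.03 (Fos) in hepatocytes and from 0.63 (Myc) to 2.75 (Ier3) in whole liver.

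Whether a change differed between the compartments was tested directly, as the change in hepatocytes minus that in whole liver (the interaction in 1 fit of all 12 libraries). Of the members, only Jund passed, with a smaller change in hepatocytes than in whole liver. Ier3 and Jun had larger differences with a wider spread and did not pass. For the other 7 members a difference was not detectable with these libraries.

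By limma, 1 of the 10 members passed an adjusted p of at most 0.1 with a smaller change in hepatocytes, against 7.49% of all genes, and 0 passed with a larger one. That count is near the share over all genes. At an unadjusted p under 0.05, 2 members had a smaller change in hepatocytes, against 17.9% of all genes, and 0 a larger one, and no other tool was run for the interaction. Over all genes the median difference was -0.11, and median-ratio size factors shifted it by 0.12. With them 492 genes passed with a smaller change and 548 with a larger one, where the main fit gave 1303 and 409.

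Jund rose by 0.58 in hepatocytes and by 1.27 in whole liver, and the difference was -0.69 ± 0.18 (adjusted p 0.0663). In absolute terms Jund stood at 13.8 ± 1.73 FPKM in WT hepatocytes and 10.6 ± 0.189 FPKM in WT whole liver, and at 20.8 ± 1.2 and 26.5 ± 4.81 FPKM in the Cdk1 Liv-/- groups. The mean was higher in hepatocytes for WT and in whole liver for Cdk1 Liv-/-, and neither difference between compartments passed (adjusted p 0.169 and 0.113). The difference lay between -0.81 and -0.54 over 19 alternatives, with adjusted p from 0.0253 to 0.161. It missed the threshold without WT hepatocytes replicate 1 (-0.61) or 3 (-0.67), without WT whole liver replicate 1 (-0.68), 2 (-0.70) or 3 (-0.68), and without Cdk1 Liv-/- whole liver replicate 2 (-0.56) or 3 (-0.70). With a replicate block the adjusted p was 0.113, so that Jund passed under 11 of the 19 alternatives.

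Gm11175, an antisense gene named here after its values were seen, overlaps 919 of the 1668 bp of Jund (chr8:70698949-70700616 on the plus strand) on the opposite strand. It stood at 25.6 ± 1.75 FPKM in WT hepatocytes and 36.5 ± 3.36 FPKM in Cdk1 Liv-/- hepatocytes. Its whole liver levels were 15.2 ± 1.21 FPKM for WT and 50.6 ± 7.85 FPKM for Cdk1 Liv-/-. Gm11175 thus exceeded Jund in mean level in all 4 groups and followed the same order of groups. It rose by 0.51 in hepatocytes (adjusted p 0.0281) and by 1.69 in whole liver (adjusted p 0.000896), and its difference between compartments was -1.19 ± 0.16 (adjusted p 0.0136). Whether RSEM was told the strand of the reads is not given, so reads of Jund and of Gm11175 cannot be told apart where they overlap.

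Overlaps of other members were named on the same grounds. Junos, antisense over 689 of the 3189 bp of Jun, was low, at 0.25 and 1.23 FPKM in WT and Cdk1 Liv-/- hepatocytes, where it rose by 1.21 (adjusted p 0.0214). In whole liver Junos stood at 0.403 and 1.68 FPKM and rose by 1.27 (adjusted p 0.00506). Prdx2, a peroxiredoxin gene, overlaps 351 of the 4235 bp of Junb on the opposite strand, and rose by 0.56 in whole liver (adjusted p 0.0162) but did not pass in hepatocytes (0.37, adjusted p 0.107).

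Ier3 had a difference of -1.27 ± 0.50 (adjusted p 0.162), which passed without WT hepatocytes replicate 2 (-1.51, adjusted p 0.0991) within a range up to 0.312. Jun had a difference of -1.06 ± 0.55 (adjusted p 0.269), with values from -1.45 to -0.53 over the alternatives. The difference of Fos was -0.15 ± 0.63 (adjusted p 0.914).

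The third comparison set isolated hepatocytes against whole liver within each genotype. Isolation is meant to remove other cells and also exposes hepatocytes to digestion and handling, and these cannot be told apart here. In WT, Fos, Jun, Junb and Jund were higher in isolated hepatocytes than in whole liver without overlap and Myc was lower, yet no member was called. In Cdk1 Liv-/- mice Fos, Jun and Egr1 were higher in isolated hepatocytes and Ier3 was lower. Each of these comparisons shares libraries with the genotype comparisons.

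In WT, limma called 0 members higher and 0 lower, against 0.0403% and 0.426% of all genes. At an unadjusted p under 0.05, 4 members were higher and 1 lower, against 2.77% and 16.1% of all genes, and the two-sample test with q-values called 0 members. The 1 lower member is near the share over all genes. The libraries did not overlap for 4 members that were higher, Fos, Jun, Junb and Jund, against 5.28% of all genes, and 1 member, Myc, was lower without overlap, against 20.7%. Fos averaged 5.26 ± 3.06 FPKM in WT hepatocytes and 0.877 ± 0.391 FPKM in WT whole liver, a log2 difference of 1.97 ± 0.40 (adjusted p 0.120). Jun averaged 24.6 ± 17.4 and 4.80 ± 1.65 FPKM, a log2 difference of 2.07 ± 0.49 (adjusted p 0.141). Both differences were large and missed the threshold in a comparison that called 81 genes in all. The log2 difference of Junb was 1.06 ± 0.35 (adjusted p 0.200), and it was 0.67 without WT hepatocytes replicate 1. Without WT hepatocytes replicate 3, 527 genes were called, and with them Fos (2.08, adjusted p 0.0681), Jun (2.45, adjusted p 0.0511) and Junb (1.30, adjusted p 0.0903). In 1 fit of all 12 libraries Fos and Jun were called. Over the alternatives, adjusted p ranged from 0.0645 to 0.382 for Fos, from 0.0320 to 0.411 for Jun and from 0.0903 to 0.478 for Junb. The number of genes called fell to 1 to 34 without any 1 of the other 5 WT libraries.

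Fosb, Klf6, Ier3 and Atf3 did not separate the WT compartments. Their log2 differences lay between -0.30 for Atf3 and 0.14 for Ier3, smaller than their SE, and the sign of each changed under some alternatives. Egr1 averaged 38.0 ± 24.6 FPKM in WT hepatocytes and 14.8 ± 7.10 FPKM in WT whole liver, with overlap (1.23 ± 0.53, adjusted p 0.277). Without WT hepatocytes replicate 1 the log2 difference of Egr1 was 0.74.

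In Cdk1 Liv-/- mice, limma called 3 members higher in isolated hepatocytes, against 1.51% of all genes. It called 1 lower, near the share of 9.46% over all genes. Without overlap, 4 members were higher, Fos, Jun, Junb and Egr1, against 10.5% of all genes. Lower without overlap were 3 members, Jund, Atf3 and Ier3, near the share of 40.3% over all genes. Median-ratio size factors shifted the median of all genes here by 0.21. Fos averaged 21.6 ± 6.11 FPKM in hepatocytes and 6.20 ± 3.23 FPKM in whole liver (1.82 ± 0.43, adjusted p 0.0220), and was called under all 16 alternatives. Jun averaged 49.6 ± 2.66 and 24.7 ± 4.96 FPKM (1.01 ± 0.16, adjusted p 0.00540), and Egr1 averaged 66.9 ± 18.4 and 32.4 ± 10.4 FPKM (1.05 ± 0.31, adjusted p 0.0414). Both sat at the edge of the fold required. Without Cdk1 Liv-/- hepatocytes replicate 1 the differences were 0.97 for Jun and 0.86 for Egr1, and without Cdk1 Liv-/- whole liver replicate 3 they were 0.83 and 0.76, so that neither was called in either case. Jun was also not called with an added constant of 1 (0.99), nor Egr1 with no filter (adjusted p 0.101, in a range from 0.0130 to 0.109).

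Ier3 went the other way, with 4.82 ± 1.45 FPKM in Cdk1 Liv-/- hepatocytes and 11.1 ± 3.28 FPKM in Cdk1 Liv-/- whole liver (-1.13 ± 0.28, adjusted p 0.0261). The call was lost without Cdk1 Liv-/- hepatocytes replicate 2 (-0.89) or Cdk1 Liv-/- whole liver replicate 2 (-0.93), and under median-ratio size factors (-0.87, adjusted p 0.0643, in a range from 0.0261 to 0.0838). Atf3 averaged 4.05 ± 0.505 and 8.64 ± 4.44 FPKM, a log2 difference of -0.90 ± 0.34 (adjusted p 0.0850). Without Cdk1 Liv-/- whole liver replicate 3 it was -1.23 (adjusted p 0.0340, in a range up to 0.193) and Atf3 was called lower. Without Cdk1 Liv-/- whole liver replicate 2 it was -0.54 (adjusted p 0.137).

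**Figure D3:**
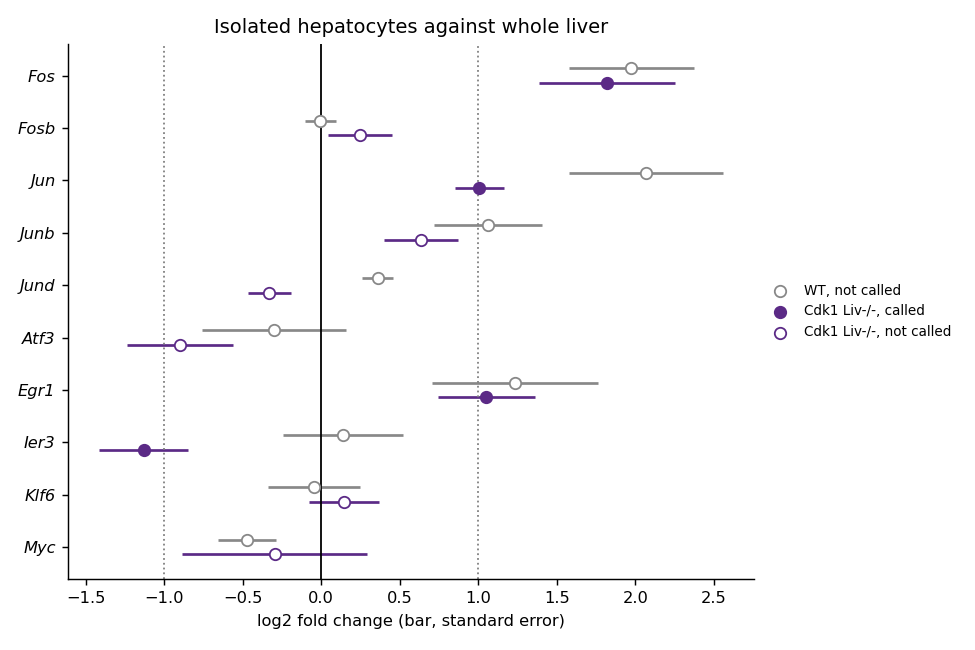
Log2 difference of each member between isolated hepatocytes and whole liver, within WT and within Cdk1 Liv-/-, with SE bars and filled points for called members. The mean of Fos was higher in hepatocytes in both genotypes (1.97 and 1.82), and Ier3 was 0.14 in WT and -1.13 in Cdk1 Liv-/-.

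The order of the members by level was partly kept across the groups. Egr1 had the highest mean in all 4 groups, although in each group its libraries overlapped those of the gene ranked next. Fosb was the lowest in all 4 groups, with no overlap with its neighbour. Jun ranked above Jund in both hepatocyte groups and below it in both whole liver groups. In WT hepatocytes the levels of Egr1, Jun, Junb and Jund each overlapped with the next, and Jund did not overlap with Fos. In Cdk1 Liv-/- whole liver the overlaps ran from Egr1 through Jund and Junb to Jun, at 32.4, 26.5, 25.1 and 24.7 FPKM, and those 4 genes were apart from the other 6.

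Summed by AP-1 partner, the RNA of the genes for both sides of the dimer was higher in Cdk1 Liv-/- libraries. Protein was not measured in these libraries. The Fos genes, Fos, Fosb, Fosl1 and Fosl2, summed to 7.17 ± 3.22 FPKM in WT hepatocytes and 25.7 ± 5.71 FPKM in Cdk1 Liv-/- hepatocytes. In whole liver they summed to 2.37 ± 0.800 and 10.9 ± 4.70 FPKM. The Jun genes summed to 54.5 ± 27.3 FPKM in WT hepatocytes and 108 ± 6.38 FPKM in Cdk1 Liv-/- hepatocytes. In whole liver they summed to 22.3 ± 2.69 FPKM for WT and 76.3 ± 15.6 FPKM for Cdk1 Liv-/- mice. In each group the mean of the Jun sum was thus well above that of the Fos sum. The libraries did not overlap between the genotypes for either sum in either compartment. In hepatocytes Jund made up 28.5 ± 10.2% of the Jun sum for WT and 19.2 ± 0.880% for Cdk1 Liv-/- mice, and Jun made up 42.3 ± 9.41% and 45.8 ± 1.49%. In whole liver Jund made up 48.0 ± 5.87% of the Jun sum for WT and 35.2 ± 6.04% for Cdk1 Liv-/- mice, and Jun made up 21.2 ± 4.56% and 32.5 ± 3.90%. These sums and shares were not tested.

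The genes whose levels ran most like those of Fos, Atf3 and Myc were taken from 12281 genes with a mean of at least 1 FPKM, by Pearson r over the 12 libraries. The r describes libraries that fall into 4 groups, so a gene that differs between the groups as a member does will score high. For Fos they were Rbm15b (0.940), Btg2 (0.937), Rlf (0.932), Phf3 (0.928) and D16Ertd472e (0.926). For Atf3 they were Cttn (0.972), Tgfbr2 (0.967), Tatdn1 (0.963), Vapb (0.963) and Slc35c1 (0.962). For Myc they were Klf11 (0.953), Sesn1 (0.939), Klf10 (0.926), Ell (0.901) and Zfp36l2 (0.900). Myc stood far above the other libraries in Cdk1 Liv-/- hepatocytes replicate 3, which weighs on its r. Without that library, an alternative chosen after seeing the data, the r of these 5 genes with Myc lay between 0.872 (Klf10) and 0.954 (Sesn1), and they ranked between 47 and 1021 among the genes searched. The order for Myc thus rests on that library.

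Genes around the members were read from lists, in the order from signal to target. Among receptors, ligands and kinases upstream of immediate early genes, limma called 2 higher in each compartment. Of 26 such genes, 2 were called higher in Cdk1 Liv-/- hepatocytes, against 4.2% of all genes, and the median log2 fold change was 0.12. The two-sample test called 1 of them, and limma called 1 without any 1 of the WT libraries or Cdk1 Liv-/- replicate 3. The 2 were Btc, a ligand of the EGF receptor family, which rose by 1.48 ± 0.19 (adjusted p 0.00786), and Egfr, the receptor itself, which rose by 1.25 ± 0.37 (adjusted p 0.0871). Areg, another ligand of that receptor, had 1.44 ± 0.50 and did not pass (adjusted p 0.124). The smallest values were those of Rps6ka2 (-0.59) and Hgf (-0.41). At an adjusted p of at most 0.1 with no fold required, 14 of the 26 were higher and 1 lower in whole liver, where 38% of all genes were higher. In whole liver limma called 2 higher, against 4.59% of all genes, and the two-sample test called 3. Those of limma were Btc (1.37 ± 0.09, adjusted p 0.000739) and Hbegf (1.00 ± 0.18, adjusted p 0.0122). Areg did not pass there either (1.01, adjusted p 0.124), and the smallest were Met (-0.35) and Erbb3 (-0.19).

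Transcription factors that act on the promoters of immediate early genes were not called higher in either compartment, apart from 1 in hepatocytes when Cdk1 Liv-/- replicate 1 was left out. Of 10 such factors, 1 was called lower in hepatocytes, against 377 of the 17386 genes tested. It was Elk3, a ternary complex factor (-1.41 ± 0.38, adjusted p 0.0691). No factor was called lower without WT replicate 1 or without any 1 of the Cdk1 Liv-/- libraries. The next smallest was Srf (-0.32), and the largest were Mkl2 (1.00, adjusted p 0.122) and Mkl1 (0.44), which encode coactivators of serum response factor. In whole liver limma and the two-sample test called 0, while 6 were higher at an unadjusted p under 0.05, against 38.9% of all genes. The largest there were Mkl1 (0.73) and Mkl2 (0.42), and the smallest were Creb1 (0.09) and Elk1 (0.09).

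The rest of the AP-1 family was mixed in direction in hepatocytes, and in whole liver 2 of its genes were called. Of 13 further family genes, limma and the two-sample test called 0 in hepatocytes. At an unadjusted p under 0.05 there were 3 higher and 1 lower, against 17.4% and 11% of all genes. With 1 library left out, 0 to 2 were called higher and 0 to 1 lower. Their median was -0.05. The largest were Maff (1.14, adjusted p 0.182) and Mafk (0.91), and the smallest were Jdp2 (-0.89) and Maf (-0.84). In whole liver 2 were called higher, against 4.59% of all genes, with a median of 0.46. They were Maff (1.76 ± 0.32, adjusted p 0.0120) and Fosl2 (1.19 ± 0.24, adjusted p 0.0163). The number called was 1 without Cdk1 Liv-/- replicate 2 and 3 without replicate 3. All 13 were above 0 in whole liver, as were 72.7% of all genes, and 9 passed an adjusted p of at most 0.1 with no fold required, as did 38% of all genes. The smallest there were Batf2 (0.13) and Mafg (0.15).

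Other immediate early genes were higher in part. Of 42 listed, 40 were tested, and Egr4 and Nr4a3 were too low. In hepatocytes 5 were called higher, against 4.2% of all genes, and 1 lower, against 377 of 17386, with a median of 0.54. The 5 became 8 without WT replicate 1 and 3 without WT replicate 2. Those higher were Dusp8 (1.87), Cyr61 (1.86), Plk3 (1.55), Socs3 (1.12) and Btg2 (1.12). Klf2, a factor that endothelial cells express strongly, fell by 1.51 (adjusted p 0.0257), and the next smallest was Btg1 (-0.78). In whole liver 12 were called higher, against 4.59% of all genes and with a median of 0.63, and 9 to 13 with 1 library left out, the largest being Cyr61 (1.90) and Dusp8 (1.82) and the smallest Btg1 (-0.06) and Arc (0.15).

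Genes described as targets of AP-1 included the largest changes among these lists. Of 20 listed, 18 were tested, without Mmp3 and Cdkn2a. In hepatocytes 5 were called higher, against 4.2% of all genes, and 1 lower, against 377 of 17386, with a median of 0.28. Timp1, an inhibitor of matrix proteases, rose from 0.09 to 9.83 FPKM in hepatocytes (4.09 ± 0.24, adjusted p 0.00110). The chemokine gene Ccl2 rose by 2.21, Spp1 by 2.20, and the keratin genes Krt8 and Krt18 by 1.43 and 1.2. Plau fell by 1.30 (adjusted p 0.0991). It was not called by the two-sample test, and limma called 0 of the list lower without any 1 library other than WT replicate 2, while the next smallest was Vim (-0.84). In whole liver 11 of the 18 were called higher, against 4.59% of all genes, with a median of 1.14. The largest were Timp1 (4.62) and Ccl2 (3.20), and the smallest were Vegfa (-0.31) and Fasl (-0.07).

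Genes around Myc stayed short of the fold required for a call, and limma and the two-sample test called 0 of them in either compartment. Of 12 partners and antagonists of Myc, 2 were higher in hepatocytes at an unadjusted p under 0.05, and 3 were higher and 1 lower in whole liver. Their medians were 0.19 and 0.17. Mlxipl, a glucose-responsive factor that shares the partner Mlx, had the largest value in hepatocytes (0.56) and the smallest in whole liver (-0.57). The others at the ends were Mlx (0.41), Mxd3 (-0.49) and Mxd4 (-0.17) in hepatocytes, and Max (0.42), Mxd1 (0.41) and Mxd3 (-0.25) in whole liver. Of 18 genes described as Myc targets, 5 were higher and 2 lower in hepatocytes at an unadjusted p under 0.05, and 15 were higher in whole liver, with medians of 0.22 and 0.28. At that p 17.4% of all genes were higher and 11% lower in hepatocytes, and 38.9% higher and 7.74% lower in whole liver, with medians over all genes of 0.05 and 0.18. Ldha had the largest value in both, 0.47 and 0.64, and Tfrc the smallest, -0.65 and -0.49. Next to them were Nolc1 (0.46) and Cdk4 (-0.45) in hepatocytes, and Nop58 (0.62) and Polr1b (-0.14) in whole liver.

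Heat shock genes, which mark protein stress, were mostly short of the fold required for a call. At an adjusted p of at most 0.1 with no fold required, 4 of 12 were higher in hepatocytes, and 6 were higher and 2 lower in whole liver, where 12.1% and 38% of all genes were higher. Of the 12, Hspb1 (1.75) and Hspa4l (1.12) were called higher in hepatocytes, and Hspb1 (2.04) in whole liver. Of all genes tested, 4.2% and 4.59% were called higher in these comparisons. Hspa1b did not pass the test in hepatocytes (1.30, adjusted p 0.120) and stood at 0.78 in whole liver. The smallest were Hspe1 (-0.19 and -0.25) and Hspd1 (-0.07 and -0.21) in both.

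**Figure D4:**
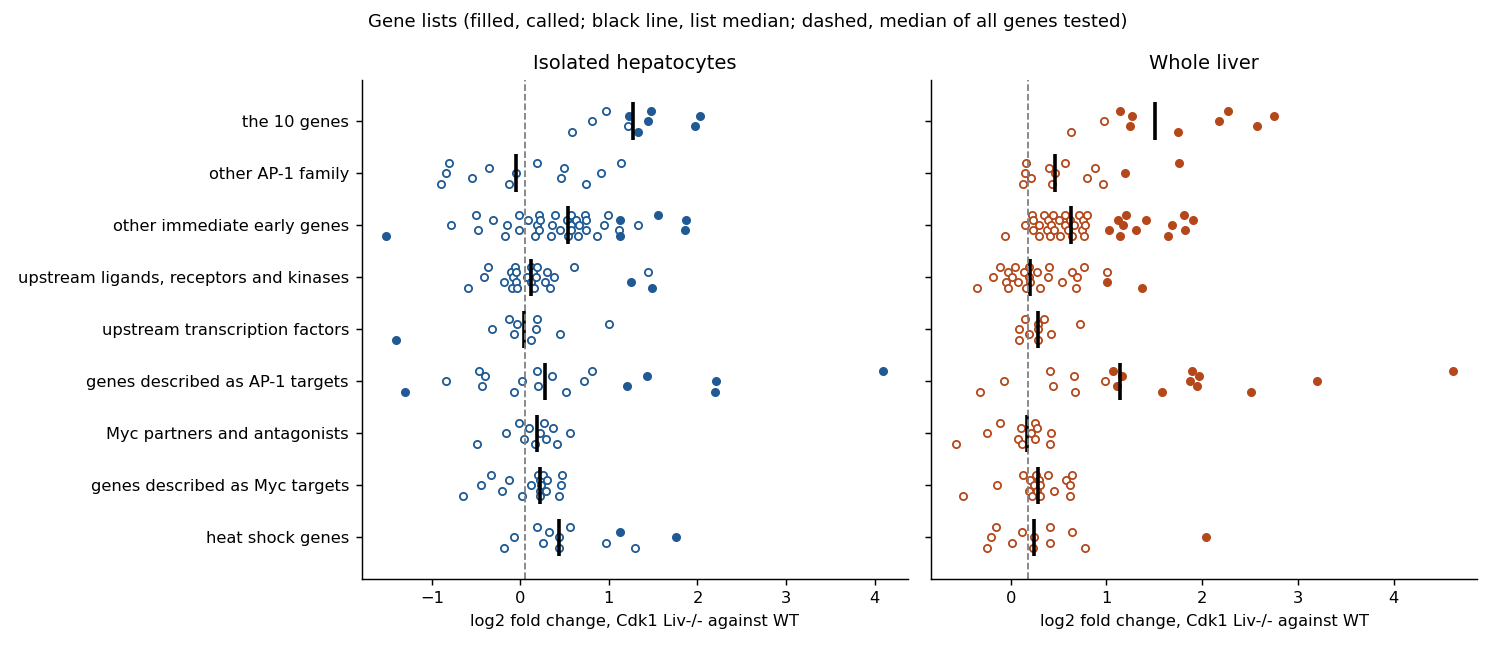
Log2 fold change between Cdk1 Liv-/- and WT of each gene of the members and of the further lists, in hepatocytes and whole liver, with filled points for called genes, black lines at list medians and a dashed line at the median of all genes tested. The medians of the members stood at 1.28 and 1.51, AP-1 targets at 0.28 and 1.14, and all genes at 0.05 and 0.18.

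As the plot of summed markers shows, other cell types differed between the groups together with the members, and the part of each in the results was not tested. In isolated hepatocytes, the summed markers of most nonparenchymal cells had lower means in Cdk1 Liv-/- than in WT, while most members were higher. Of 8 sinusoidal endothelial markers, 8 were called lower, and their sum was 160 ± 80.1 FPKM in WT hepatocytes and 50.6 ± 12.5 FPKM in Cdk1 Liv-/- hepatocytes, with Fcgr2b the most abundant. Of 8 Kupffer cell and macrophage markers, 1 was called lower, and their sum was 347 ± 202 and 154 ± 36.0 FPKM, with Cd5l the most abundant. Without WT hepatocytes replicate 3 the WT means were 115 FPKM for endothelial and 238 FPKM for Kupffer cell markers, and 6 and 0 of these markers were called lower. The Kupffer cell sums overlapped between the genotypes, as WT replicate 2 had 167 FPKM and the highest Cdk1 Liv-/- library 194 FPKM. Without WT replicate 1, 3 endothelial markers were called lower, and without WT replicate 2, 8 endothelial, 8 Kupffer cell and 5 stellate cell markers. Of 6 cholangiocyte markers, 5 were tested and 2 were called higher. Their sum was 21.4 ± 7.91 FPKM in WT hepatocytes and 97.0 ± 28.8 FPKM in Cdk1 Liv-/- hepatocytes, mostly from Spp1, which is also on the list of AP-1 targets. Of 6 erythroid and 8 lymphocyte markers, 2 of each were called lower. The erythroid ones were Alas2 and Klf1, while Hbb-bs, the most abundant, overlapped between the genotypes and did not pass (adjusted p 0.184), and Gzma was the most abundant lymphocyte marker. Limma called 1 of 6 monocyte markers higher. Of all genes tested in hepatocytes, it called 4.2% higher, and 377 of 17386 lower. Limma and the two-sample test called 0 of 8 stellate cell and 0 of 8 neutrophil markers. At an unadjusted p under 0.05 there were 2 lower and 0, against 11% of all genes that were lower. Of the 8 hepatocyte markers 1 was called lower, and their sum, mostly from Alb, was 85967 ± 4387 and 57428 ± 1978 FPKM. The list was split in direction. Alb, Apoa1, Ttr and Serpina1a were lower without overlap in Cdk1 Liv-/- hepatocytes, and Cps1, Tat and Fgb were higher without overlap.

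In whole liver, markers of several other cell types were higher in Cdk1 Liv-/-, in the same direction as the members. Of 8 neutrophil markers, 5 were called higher, and their sum was 63.6 ± 15.5 FPKM for WT and 221 ± 118 FPKM for Cdk1 Liv-/- whole liver, with S100a9 the most abundant. With 1 library left out, 0 to 7 neutrophil markers were called higher. Without Cdk1 Liv-/- replicate 2 the number was 1, and without replicate 3 it was 0. Of 6 monocyte markers, 5 were called higher, with sums of 73.1 ± 7.66 and 183 ± 37.7 FPKM and Lyz2 the most abundant. Of 8 stellate cell and fibroblast markers, 2 were called higher, with sums of 441 ± 35.8 and 865 ± 126 FPKM and Col3a1 the most abundant. Of the 5 cholangiocyte markers tested, 3 were called higher, with sums of 55.8 ± 8.75 and 223 ± 73.1 FPKM, and 5 and 2 were called without Cdk1 Liv-/- replicate 2 and 3. Limma and the two-sample test called 0 of 8 Kupffer cell, 0 of 8 endothelial and 0 of 8 hepatocyte markers. At an unadjusted p under 0.05, 4 Kupffer cell and 2 endothelial markers were higher and 4 hepatocyte markers lower. At that p 38.9% of all genes were higher and 7.74% lower. The hepatocyte markers, mostly Alb, summed to 84322 ± 1649 FPKM for WT and 63839 ± 2782 FPKM for Cdk1 Liv-/- whole liver. Of the 8, 2 had a log2 fold change above 0, as did 72.7% of all genes. Of the erythroid and lymphocyte markers, 1 of each was called lower. Of all genes tested in whole liver, 4.59% were called higher, and 174 of 17386 lower. Cftr was the only marker of any list at 0 in a library, in 1 of the 12. The sums of Cdk1 Liv-/- whole liver replicate 2, in which every member was above its group mean, were the highest of that group for Kupffer cells (777 FPKM), stellate cells (1008 FPKM), neutrophils (317 FPKM) and monocytes (226 FPKM). Those for cholangiocytes (139 FPKM) and hepatocytes (60742 FPKM) were the lowest of that group.

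Between the compartments of Cdk1 Liv-/- mice, markers of other cells were far lower in isolated hepatocytes. Of 8 Kupffer cell markers, 8 were called lower in hepatocytes, as were 8 of 8 endothelial, 7 of 8 stellate cell and 7 of 8 neutrophil markers. Of all genes, 9.46% were called lower. In WT mice fewer markers were called lower in isolated hepatocytes. Limma called 2 of 5 cholangiocyte and 1 of 8 lymphocyte markers lower and none of the other cell types, and the two-sample test called 1 cholangiocyte marker. At an unadjusted p under 0.05, the lower markers were 5 of 5 for cholangiocytes, 8 of 8 for lymphocytes, 4 of 6 for erythroid cells, 4 of 8 for neutrophils, 3 of 6 for monocytes and 3 of 8 for stellate cells. For Kupffer cells and endothelial cells 0 of 8 passed at that p. Of all genes, 16.1% were lower at that p, and limma called 0.426% lower. The endothelial sum was 160 ± 80.1 FPKM in isolated WT hepatocytes and 141 ± 23.8 FPKM in WT whole liver. Without WT hepatocytes replicate 3 the first mean was 115 FPKM, below that of whole liver, and 4 of 8 Kupffer cell, 5 of 8 stellate cell, 6 of 8 neutrophil and 0 of 8 endothelial markers were called lower in hepatocytes. Fos, Jun and Egr1 were higher in Cdk1 Liv-/- hepatocytes than in whole liver where the markers of other cells were lower, and Ier3 was lower together with them.

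Markers of some other cell types also had a smaller change with genotype in hepatocytes than in whole liver, the direction in which Jund passed. In the interaction, 7 of 8 endothelial, 4 of 6 monocyte, 3 of 8 Kupffer cell and 3 of 8 stellate cell markers passed with a smaller change in hepatocytes. Of all genes, 7.49% did so. Of the neutrophil and lymphocyte markers 0 of 8 each passed, as did 0 of 6 erythroid and 0 of 5 cholangiocyte markers. With each of the 12 libraries left out, 0 to 8 endothelial and 0 to 8 Kupffer cell markers passed. Their part in the value of Jund was not tested.

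**Figure D5:**
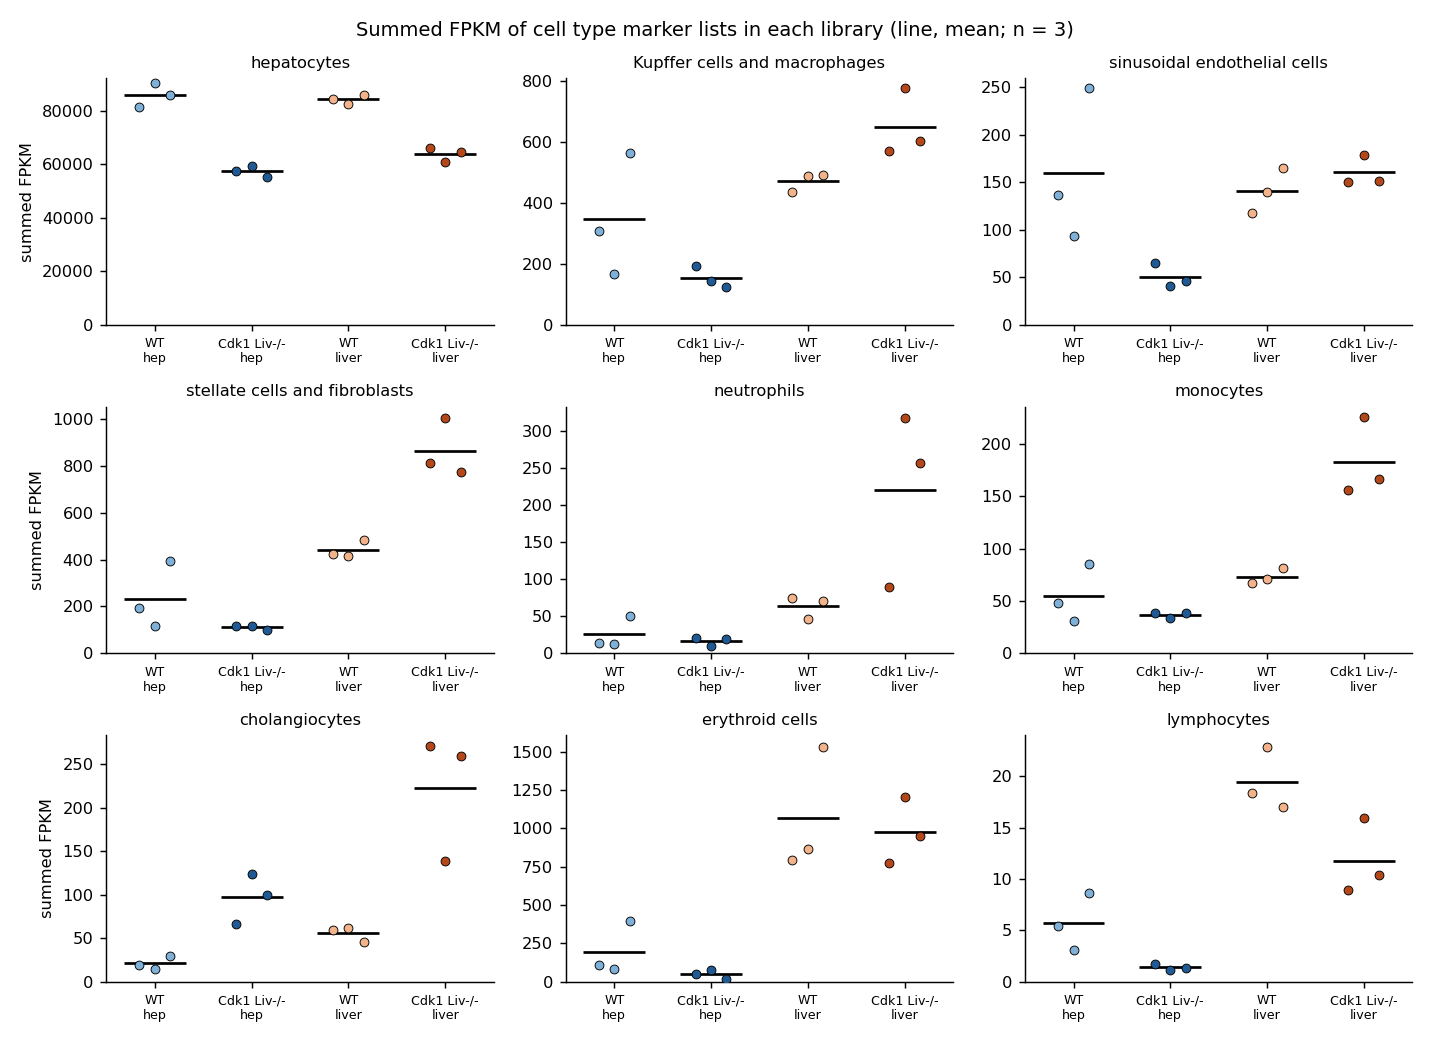
Summed FPKM of the marker genes of each cell type in each library, by group, with points for libraries and lines for group means. Endothelial markers averaged 160 FPKM (WT) and 50.6 FPKM (Cdk1 Liv-/-) in isolated hepatocytes, and neutrophil markers averaged 63.6 FPKM (WT) and 221 FPKM (Cdk1 Liv-/-) in whole liver.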

How the data were processed

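The authors sequenced polyadenylated RNA as single-end reads of 75 bp, aligned it with STAR (version not given in the sources used here) and quantified genes on mm10 with RSEM 1.2.31. The deposited values are FPKM to 2 decimals, per gene and library, with no normalization between libraries. The annotation release is not given in the sources used here. Depth was estimated from the steps of 1 read between the lowest FPKM of transcripts of 300 to 900 bp.

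The package limma 3.58.1 (R 4.3.3) tested differences in log2(FPKM + 0.5), with its trend option, over the 17386 genes with a mean of at least 0.1 FPKM. Tests were two-sided and adjusted by the Benjamini-Hochberg method over all genes tested. Called genes had an adjusted p no higher than 0.1 together with a log2 fold change of 1 or more in either direction, and for the interaction the adjusted p alone. Tables and figures were made in Python 3.11.15 with pandas 2.3.3, numpy 2.4.6 and matplotlib 3.10.9.

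Alternatives were an added constant of 0.1 or 1, no filter, median-ratio size factors, the same sum in every library, no trend, the adjusted p alone, 1 fit of all 12 libraries, a replicate block, a two-sample test with q-values, and each library left out. Leaving out libraries for the further lists, marker sums and alike genes was chosen after seeing the data. A group left with fewer libraries is assumed to vary like the others. Replicate numbers were not taken as pairs.

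All members are named. Of each further list, the 2 genes at each end of the log2 fold changes are named, and every called gene where at most 5 were called. For Fos, Atf3 and Myc the 5 most alike genes are named, and of markers the most abundant. The members and lists were chosen with earlier results of these data known. Positions are from GENCODE M21.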

Additional observations from a re-analysis of the deposited data

Results flagged for a closer look

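Jund passed the test of the interaction, the change with genotype in hepatocytes minus that in whole liver. The difference was -0.69 on the log2 scale (SE 0.18, adjusted p 0.0663 by limma), from a change of 0.58 in hepatocytes and 1.27 in whole liver. It passed under 11 of 19 alternatives, with adjusted p between 0.0253 and 0.161, and was lost in 7 of the 12 fits with a library left out and with a replicate block. As 1 of 10 members, against 7.49% of all genes, it is near the share over all genes, and that share depended on the scaling. Reads of Jund and of the antisense gene Gm11175 cannot be told apart where they overlap.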

How the results depend on the processing

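In the genotype comparisons no alternative changed the direction of a member. Over all 5 comparisons and the settings other than leaving out a library, 446 of 470 log2 fold changes of members kept their direction and their side of the threshold, 9 passed it newly, 11 no longer passed and 4 changed sign. With 1 library left out, 301 of 360 kept both, 8 passed newly, 29 no longer passed and 22 changed sign. The cause was not tested for any of the values below.

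With no filter, 3 members were called in hepatocytes, 41 genes in WT between compartments, and 915 in the interaction. With a constant of 0.1, 1761 genes were called in hepatocytes, 1650 in whole liver, and 172 and 3269 between compartments in WT and Cdk1 Liv-/-. At the adjusted p alone, the numbers were 3257, 7920, 265 and 7774, and 2 members were lower in Cdk1 Liv-/- hepatocytes than in whole liver. With a constant of 1, 48 genes were called between WT compartments. Median-ratio size factors gave 41 genes there and 1040 in the interaction, called 0 members lower between Cdk1 Liv-/- compartments, and moved the WT difference between compartments to 0.018 for Fosb and 0.064 for Klf6. The same sum in every library gave 51 genes between WT compartments and a difference of 0.0044 for Fosb. In WT between compartments, 1 fit of all 12 libraries called 160 genes and 2 members, and the two-sample test 43 genes. With the replicate block, 0 genes were called between WT compartments, and 656 genes and 0 members in the interaction. With a constant of 1 the interaction of Fos was 0.078.

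With each library left out, 3 to 6 members were called in hepatocytes. Between WT compartments 0 to 3 members and 1 to 527 genes were called, and values ran from -0.096 to 0.053 for Fosb, -0.61 to 0.16 for Atf3, -0.28 to 0.38 for Ier3 and -0.29 to 0.27 for Klf6. Between Cdk1 Liv-/- compartments 1 to 3 members were called higher and 0 to 2 lower, and values ran from -0.049 to 0.31 for Klf6 and -0.99 to 0.12 for Myc. In the interaction 0 to 2 members and 78 to 2639 genes passed, and values ran from -0.62 to 0.25 for Fos, -0.60 to 0.31 for Egr1, -0.13 to 0.43 for Klf6 and -0.52 to 0.59 for Myc. Depth limits Fosb most, at an estimated 10.1 to 36.6 reads in WT libraries.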
